A study of Mus musculus with 6 samples.

Results

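The 7 genes Grm2 to Grm8 encode metabotropic glutamate receptors, and their transcript levels were followed in total brain of mice designed to lose HuR, the RNA-binding protein made from Elavl1, in neurons. They were taken by symbol from the probesets that carry exactly 1 gene symbol, and the probeset with the highest mean stood for each gene, which gave 7 of the 22180 genes on the array. RNA of 6 total brain samples had been measured on Affymetrix Mouse Gene 2.0 ST arrays, 1 array per sample, with 3 control and 3 knockout samples. The control mice were Thy1Cre-ERT2-EYFPHuRf/+ and the knockout mice Thy1Cre-ERT2-EYFPHuRf/f, so the Thy1 promoter, active in neurons, drove a Cre-ERT2 recombinase and the EYFP reporter in both groups. The groups differed in carrying 1 or both Elavl1 alleles floxed. Tamoxifen, which activates the recombinase, was given to both groups in week 10 and week 11 of life, and RNA came from 91-day-old animals of either sex. The controls are therefore not free of Cre or tamoxifen and may lack 1 functional allele in recombined neurons, while cells outside the Thy1 pattern keep the gene in both groups.

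Metabotropic glutamate receptors are G protein-coupled receptors that bind the transmitter glutamate and work more slowly than the glutamate-gated ion channels. Group I, represented here by Grm5, couples through Gq to phospholipase C and calcium release, mostly at the postsynaptic membrane. Group II (Grm2 and Grm3) and group III (Grm4, Grm6, Grm7 and Grm8) couple through Gi and Go proteins to a fall in cyclic AMP, and many of them act at the presynaptic terminal to reduce transmitter release. Their sites differ within the brain. Grm4 is abundant in cerebellar granule cells, Grm3 is made by astrocytes as well as neurons, and Grm6 is known from the ON bipolar cells of the retina.

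The upstream reference sequences of Grm2 and Grm3 are shown because these were the receptors with a wide and with the narrowest spread over the arrays. Each covers the 250 bases before the RefSeq start site, written 5′ to 3′ on the gene's strand (minus for both) in build GRCm38.p6, and capitals mark GGGCGG, the GC box bound by Sp1-type factors.
Grm2 (chr9:106656110-106656359): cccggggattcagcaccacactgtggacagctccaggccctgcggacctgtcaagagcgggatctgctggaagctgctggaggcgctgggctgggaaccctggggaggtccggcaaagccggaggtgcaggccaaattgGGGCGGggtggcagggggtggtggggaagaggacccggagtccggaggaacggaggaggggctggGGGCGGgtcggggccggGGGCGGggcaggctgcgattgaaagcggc
Grm3 (chr5:9725353-9725602): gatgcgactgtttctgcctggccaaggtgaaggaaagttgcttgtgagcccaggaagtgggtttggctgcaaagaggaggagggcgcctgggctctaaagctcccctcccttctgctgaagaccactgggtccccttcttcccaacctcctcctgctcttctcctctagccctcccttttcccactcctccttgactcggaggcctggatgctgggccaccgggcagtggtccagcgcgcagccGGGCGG
The Grm2 window held 3 GC boxes and 16 CpG dinucleotides at a GC content of 71.2%, and the Grm3 window held 1 box and 8 CpG dinucleotides at 62.4%. GGGCGG or its reverse complement CCGCCC was found in 32.7% of the 32817 windows of this length in the RefSeq promoter table, where the median window had 6 CpG dinucleotides. Of the 7 receptors, 5 had 1 or more windows in the table, 8 windows in all, and Grm4 and Grm5 had none. The Grm8 windows held 29, 8 and 2 CpG dinucleotides, the first with 1 box, and each Grm7 window held 1 box. The only Grm6 window held no match and 4 CpG dinucleotides. A match describes the letters and not a bound site, and whether these sequences bear on the spread over the arrays was not tested.

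The labelled tissue was checked against marker lists before the receptors were examined, on the log2(intensity + 1) scale after quantile normalization used for all levels below. The mean level over 12 pan-neuronal markers lay between 9.70 and 10.2 on the 6 arrays, that of 12 astrocyte markers between 8.44 and 8.77, and that of 11 oligodendrocyte markers between 8.66 and 9.06. Retinal markers were dim, with 3 of 7 measured genes above the brightness limit (the 25th percentile of gene means) and a mean level of 3.62 to 3.90 for those. Control 3 and knockout 3 stood apart from the other 4 arrays. Their Xist level was 7.69 and 7.68 against 2.52 to 2.79, and the levels of 3 Y-linked genes ran from 2.86 to 3.19 against 5.74 to 7.53, so each group holds 1 array that reads as female. Elavl1, the targeted gene, had a log2 fold change of -0.05 (SE 0.15) for knockout over control, with a sign that turned when arrays were centred on their median (0.014), and it is unknown here whether its probeset lies in the deleted part.

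None of the 7 receptor genes passed the test for a difference between genotypes. All 7 lay above the brightness limit and were tested, and in limma 0 of them passed at 0.05 after Benjamini-Hochberg adjustment over 16635 genes, of which 0 (0%) passed. At an unadjusted p under 0.05 there were 0 receptors, against 282 genes or 1.7% of all tested. Of all tested genes 0.932% (155) were higher and 0.763% (127) lower in knockout at that p; the split was 107 and 147 without normalization and 166 and 76 after median centring. With same-numbered arrays as pairs 0 receptors and 4.85% of all genes had such a p. The control and knockout arrays overlapped for every receptor, while 5.7% of all genes had groups without overlap. Log2 fold changes of knockout over control ran from -0.10 for Grm2 to 0.22 for Grm4, with 4 above and 3 below 0 and a median of 0.0038, next to a median of 0.013 over all genes. With 1 array left out the receptors' median lay between -0.12 and 0.14. Each adjusted p was 1.00. No label ties a sample to a named animal, and the p-values speak only of the spread among these 6 samples. In whole-brain RNA, fewer cells of a type and less RNA per cell cannot be told apart.

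**Figure D1:**
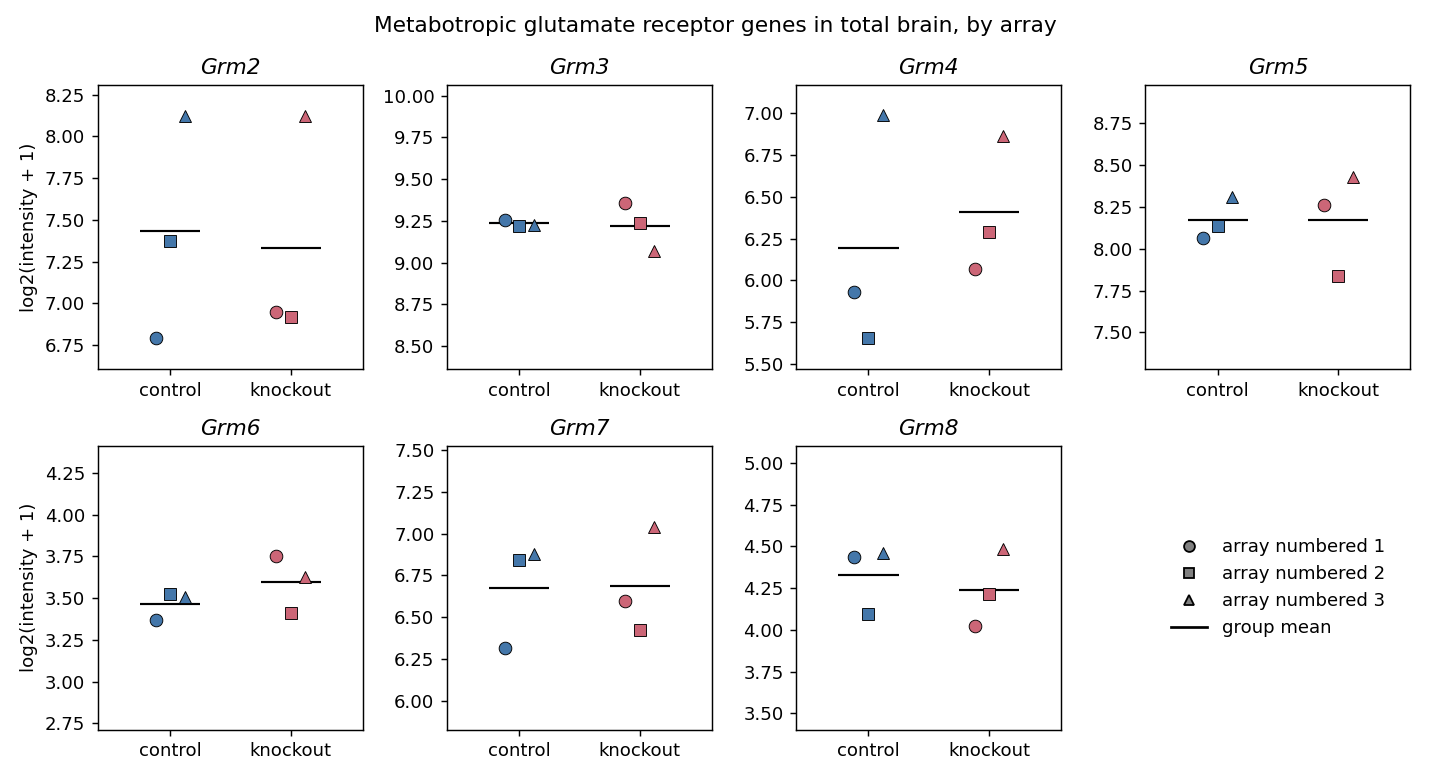
Log2(intensity + 1) of each receptor gene on every array (points, shape by replicate number), with control in blue, knockout in red and the group mean as a line; all panels span the same number of log2 units around their own centre. For Grm2 the arrays numbered 3 are at 8.12 in both groups and the other 4 lie between 6.79 and 7.38, and for no receptor are all knockout points on one side of all control points.

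Grm5, the group I receptor that drives phospholipase C and binds Homer scaffolds, had nearly equal group means. Its log2 level was 8.07, 8.14 and 8.31 on control arrays 1, 2 and 3 and 7.83, 8.26 and 8.43 on knockout arrays 2, 1 and 3. Knockout arrays thus held both the lowest and the highest value. The means were 8.17 ± 0.124 in control and 8.17 ± 0.306 in knockout (SD, n = 3 each), a log2 fold change of 0.0038 with an SE of 0.17. The 95% confidence interval of the fold ran from 0.764 to 1.32.

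Grm2, a group II autoreceptor of glutamatergic terminals, varied widely between arrays of 1 group. Its deposited intensity was 111, 156 and 283 on control arrays 1, 2 and 3 and 122, 120 and 286 on knockout arrays 1, 2 and 3. The arrays numbered 3 were far above the rest in both groups, and they differed from each other by -0.0031 on the log2 scale. The log2 level was 7.43 ± 0.668 in control and 7.33 ± 0.686 in knockout (SD, n = 3 each), with a log2 fold change of -0.10 and an SE of 0.41. The interval of the fold, 0.477 to 1.82, was wide, with the arrays numbered 3 counted as spread within the groups. With the replicate number as a block the SE was 0.13 and the log2 interval ran from -0.43 to 0.23.

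Grm3, the other group II receptor, was the steadiest across the 6 arrays. Control arrays 1, 2 and 3 had log2 levels of 9.26, 9.22 and 9.23, and knockout arrays 1, 2 and 3 had 9.36, 9.24 and 9.07. The span from lowest to highest was 1.22-fold, against 2.52-fold for both Grm2 and Grm4. The log2 fold change was -0.013 with an SE of 0.11, and median centring of the arrays turned it to 0.033. The interval of the fold ran from 0.827 to 1.19, the tightest bound on any of the 7. Aldh1l1, an astrocyte enzyme used as a marker of these cells, was lowest on the arrays numbered 3, at 6.69 in control and 6.71 in knockout against 6.87 to 7.40 elsewhere, whereas Grm3 was lowest on knockout 3 alone. Of the 12 astrocyte markers 8 had both arrays numbered 3 below the rest, 1 had both above and 3 neither, with a mean list level of 8.45 on control 3 and 8.44 on knockout 3 against 8.58 to 8.77. Among all genes tested 20.6% had both below and 23.4% both above.

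Grm4, the group III receptor of cerebellar parallel fibre terminals, had the largest difference in group means, and that difference was within the spread of the arrays. Log2 levels were 5.93, 5.65 and 6.99 on control arrays 1, 2 and 3 and 6.07, 6.29 and 6.87 on knockout arrays 1, 2 and 3. Control 3 was the highest of all 6 arrays, so the groups overlapped. The mean was 6.19 ± 0.704 in control and 6.41 ± 0.412 in knockout (SD, n = 3 each), a log2 fold change of 0.22 with an SE of 0.36 (limma adjusted p = 1.00, unadjusted p = 0.561). Differences between same-numbered arrays were 0.13, 0.64 and -0.12, so 1 number carries most of the difference. Without control 3 the log2 fold change was 0.61 (limma adjusted p = 0.947, with the unadjusted value under 0.05), and without control 2 it was -0.053. With both arrays numbered 3 left out it was 0.39 (limma adjusted p = 0.932, again with the unadjusted value under 0.05).

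Grm7, a group III receptor of the presynaptic active zone, had log2 levels of 6.31, 6.84 and 6.88 on control arrays 1, 2 and 3 and 6.60, 6.42 and 7.04 on knockout arrays 1, 2 and 3. The lowest array was a control and the highest a knockout, and the log2 fold change was 0.0099 with an SE of 0.21. A second Grm7 probeset gave values from 5.91 to 6.39 in control and from 5.94 to 6.41 in knockout, with a log2 fold change of 0.012 (SE 0.18). Both probesets had their highest values on the arrays numbered 3.

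Grm8, a group III receptor with high affinity for glutamate, was dimmer, at 4.43, 4.09 and 4.46 on control arrays 1, 2 and 3 and 4.02, 4.21 and 4.48 on knockout arrays 1, 2 and 3. Its log2 fold change was -0.089 with an SE of 0.16. Grm6, whose protein couples glutamate to Trpm1 channels in retinal ON bipolar cells, lay between 3.37 and 3.76 on all 6 arrays, below the array medians of 3.85 to 3.97 before normalization. Its log2 fold change was 0.13 with an SE of 0.12, and a second Grm6 probeset, at 2.91 to 3.15, gave -0.048 (SE 0.11). At this brightness a difference in Grm6 could be understated or missed. Grm8, at 4.02 to 4.48, was little above those medians, so the same may hold for it.

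**Figure D2:**
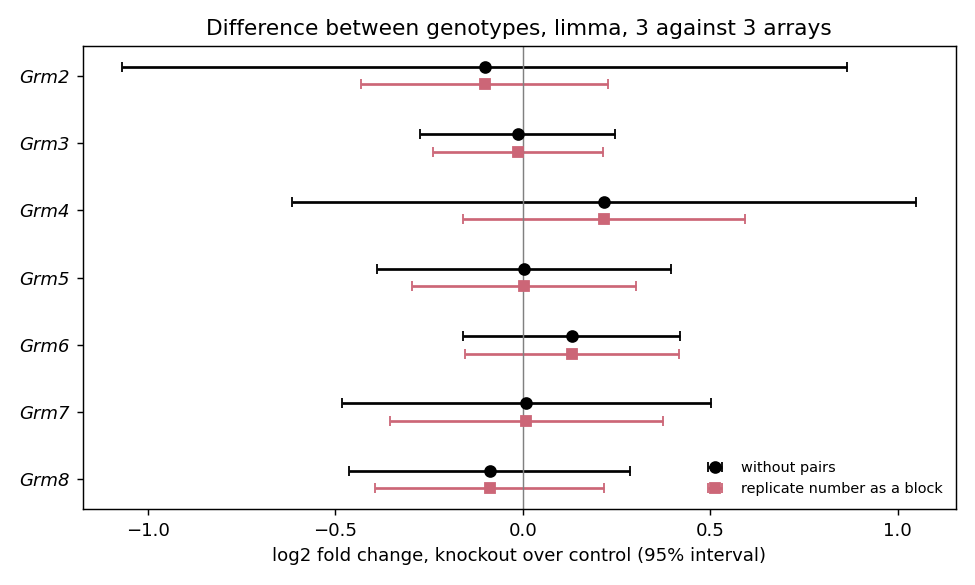
Log2 fold change of knockout over control for each receptor with its 95% interval, without pairs (black circles) and with the replicate number as a block (red squares). Every interval spans 0 in both fits, and the interval of Grm2 shrinks from between -1.07 and 0.86 to between -0.43 and 0.23 with the block.

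The arrays numbered 3 were the highest of their groups for most receptors. For Grm2, Grm4, Grm5, Grm7 and Grm8, 5 of 7, both arrays numbered 3 lay above the other 4; this was so for 23.4% of all genes tested, and 20.6% had both below. For Grm3 and Grm6 the arrays numbered 3 lay among the others. With those arrays left out, the span over the remaining 4 arrays fell to 1.50-fold for Grm2, 1.56-fold for Grm4 and 1.10-fold for Grm3. This separation is no comparison of the study's groups, and sex and other differences of these 2 samples cannot be told apart in it.

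Marker lists moved with the same arrays. Cerebellar granule cell markers had a mean log2 level of 7.61 on control 3 and 7.71 on knockout 3 against 6.50 to 6.80 on the other 4, and 10 of 12 of them had both arrays numbered 3 above the rest, as 23.4% of all genes tested did. Their leading marker Gabra6, a GABA-A receptor subunit largely confined to granule cells, was at 9.24 on control 3 and 9.22 on knockout 3 against 8.11 to 8.70. Endothelial markers were likewise higher on these arrays, at 6.20 and 6.32 against 4.95 to 5.40, and pan-neuronal markers at 10.2 on both against 9.70 to 9.84. Microglia markers were lower, at 6.19 and 6.14 against 6.52 to 6.61. On the 4 arrays not numbered 3, Grm4 was highest on knockout 2, at 6.29, as was the granule cell list, at 6.80, whereas control 1 had a list level of 6.76 with Grm4 at 5.93. The part of these cell populations in the receptor values was not tested.

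**Figure D3:**
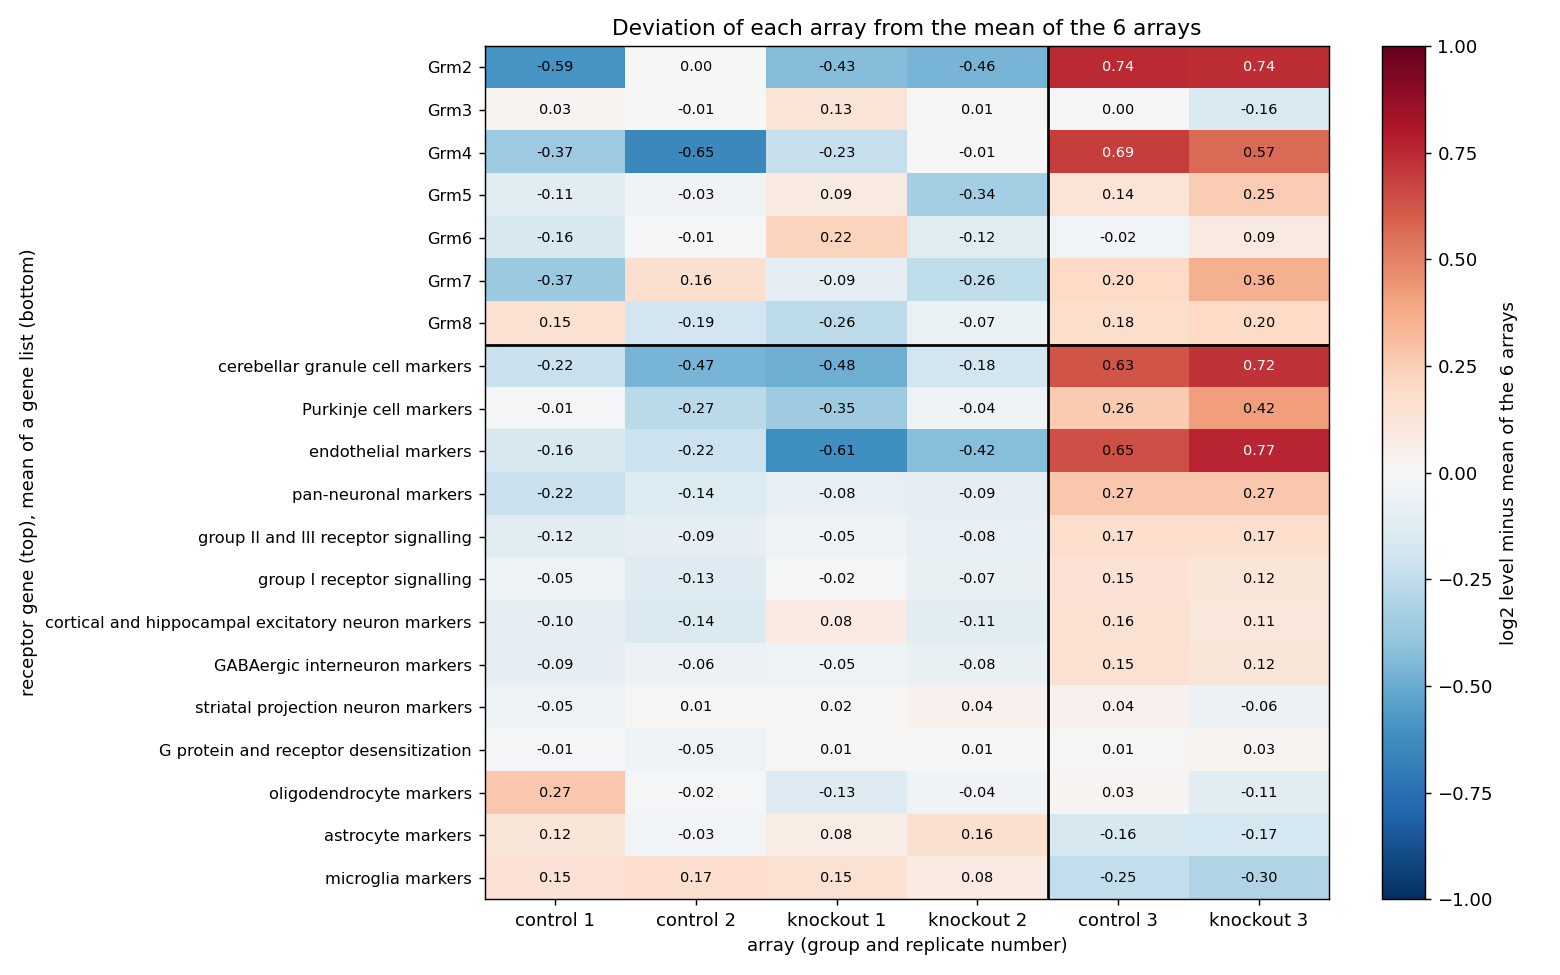
Deviation of each array from the mean of the 6 arrays on the log2 scale, for the 7 receptors (top) and the mean over each gene list (bottom), with the arrays numbered 3 at the right. Grm2 and Grm4 are 0.57 to 0.74 above their means on both right-hand arrays. On control 3 and knockout 3 cerebellar granule cell markers are at 0.63 and 0.72, and endothelial markers at 0.65 and 0.77. Grm3 deviates by no more than 0.16 on any array.

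Of the 209 tested genes on the fixed lists, the one most like each receptor over the 6 arrays is given as a description; both genes of a pair come from the same 6 arrays, and for Grm2 and Grm4 much of the range is that between the arrays numbered 3 and the rest. Grm2 was most like Gad2, an enzyme of GABA synthesis (Pearson r = 0.991, Spearman rho = 0.829, r = 0.962 over the 4 arrays not numbered 3). Grm4 was most like the adenylyl cyclase Adcy6 (r = 0.996, rho = 0.943, r = 0.994 over the 4), and Grm5 was most like the cortical upper-layer factor Cux2 (r = 0.981, rho = 0.943, r = 0.993 over the 4). Grm8 was most like the scaffold Shank2 (r = 0.961), Grm7 most like the dim Nyx (r = 0.929) and Grm3 most like the dopamine receptor Drd1 (r = 0.924, falling to 0.746 over the 4). Grm6 had the weakest best match, Gpr17, at r = 0.791. Each is the best of 209 candidates, so its size is no finding.

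The signalling partners of the receptors did not pass the test either. Of the 30 listed genes of group I signalling, 27 were measured and tested, 16 of them with log2 fold changes above 0, at a median of 0.042, and 0 had an unadjusted p under 0.05. The smallest p values there belonged to Homer2 at 0.21 (SE 0.21), Siah1a, a ubiquitin ligase that binds the receptor tail, at -0.099, and Homer1 at 0.14; the Homer proteins tether group I receptors to the postsynaptic scaffold. Of 30 listed genes of group II and III signalling, 28 were tested, 18 lay above 0 at a median of 0.020, and 0 had an unadjusted p under 0.05. Over all genes tested 54.8% of values lay above 0 and 1.7% had such a p. A count of 0 in lists this short is near that share. Elfn2, an adhesion protein that recruits group III receptors across the synapse, was at 0.17 (SE 0.13), the PDZ protein Pick1, which binds the Grm7 tail, at 0.13, and the G protein subunit Gnai2 at -0.12. With 1 array left out the medians ran from -0.052 to 0.092 for group I signalling and from -0.056 to 0.14 for group II and III signalling. In both signalling lists the arrays numbered 3 were often high, with both above the rest for 14 of 27 and 20 of 28 genes. Both lay below the rest for 6 and 2 genes. Of all genes tested 23.4% had both above and 20.6% both below.

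Among 22 tested genes that end G protein and receptor signalling (regulators of G protein signalling, receptor kinases, arrestins), 13 lay above 0 at a median of 0.023, and 1 gene, Grk3, had an unadjusted p under 0.05 without pairs. With the replicate number as a block 2 had one, Grk3 and Grk5, and neither passed after adjustment over all genes. Of all genes tested 1.7% had such a p without pairs and 4.85% with the block. Grk3, a kinase that phosphorylates active receptors, had log2 levels of 7.13, 7.23 and 7.34 on control arrays 1, 2 and 3 and 7.54, 7.59 and 7.45 on knockout arrays 1, 2 and 3. All 3 knockout arrays lay above all 3 controls, also on the arrays numbered 3, at a log2 fold change of 0.29 with an SE of 0.11 (limma unadjusted p = 0.03, adjusted p = 1.00). The related kinase Grk5 was at 0.26 (SE 0.15) and the arrestin Arrb2 at 0.11 (SE 0.10). For Arrb2 the groups did not overlap, and for Grk5 they did. The third gene without overlap was Rgs9, a regulator of striatal G protein signalling, at -0.087 (SE 0.096, limma unadjusted p = 0.394). Its lowest control value was 8.13 and its highest knockout value 8.11. These are values and not calls, and 3 of 22 genes had groups without overlap where 5.7% of all genes did.

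Most genes listed for the retinal cascade in which Grm6 acts were dim. Isl1, at 5.54 to 6.16, and Rgs11, at 4.36 to 5.21, were brighter. Of the 12 listed, 9 were measured and 8 tested, with a mean level of 3.94 to 4.13 and 4 members on each side of 0. Gnb3, a G protein subunit of cone and ON bipolar cells, was at -0.18 (SE 0.10), Gpr179 at -0.20 and Lrit3 at 0.13. The groups did not overlap for Gnb3, 1 of the 8 tested genes, as for 5.7% of all genes. Of 17 tested genes that supply or clear glutamate, 13 lay above 0 at a median of 0.037 and 0 had an unadjusted p under 0.05. The shares over all genes tested were 54.8% above 0 and 1.7% with such a p. The peptidase Naalad2 was at 0.35 (SE 0.26), with knockout 2 at 4.55 and the other 5 arrays between 3.44 and 3.71. Glul, which makes glutamine in astrocytes, was at 0.10 and the glial transporter Slc1a3 at 0.069.

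**Figure D4:**
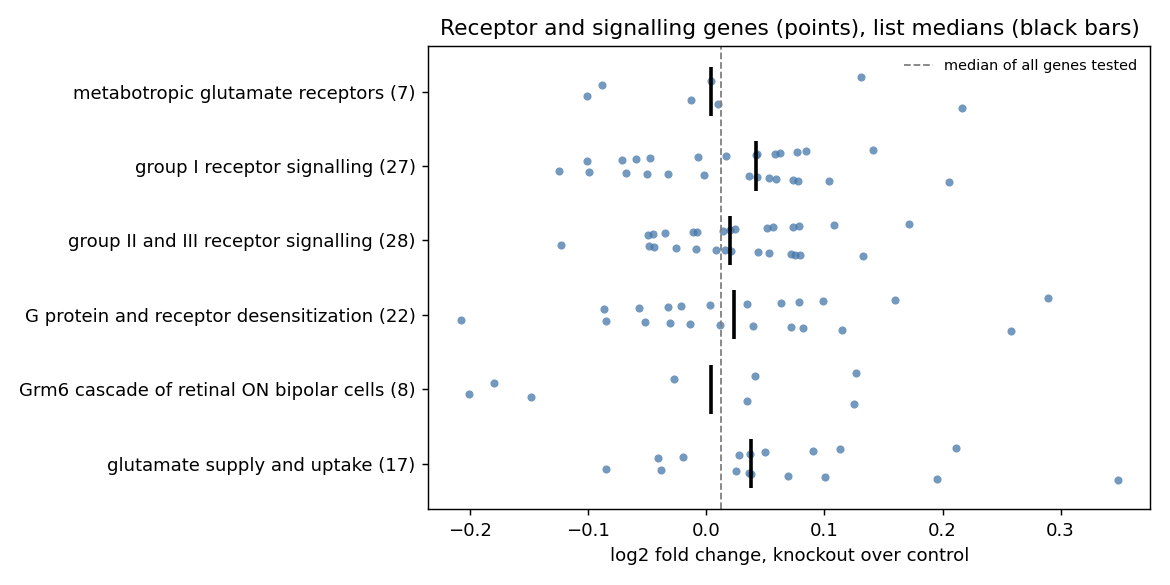
Log2 fold change of knockout over control for the 7 receptors and for each tested gene of 5 signalling lists (points), with list medians as black bars and the median of all genes, 0.013, as a dashed line. List medians run from 0.0035 to 0.042, and no point lies beyond 0.35.

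Cell type lists were compared between genotypes to place the receptors' values. Pan-neuronal markers had 12 of 12 values above 0 at a median of 0.063, astrocyte markers 9 of 12 at 0.052, and cerebellar granule cell markers 10 of 12 at 0.032. Purkinje cell markers had 2 of 7 above 0 (median -0.025), striatal projection neuron markers 4 of 9 (-0.0033), cortical and hippocampal excitatory neuron markers 8 of 11 (0.046), GABAergic interneuron markers 5 of 10 (0.0027) and olfactory bulb neuron markers 2 of 7 (-0.084). Microglia markers had 5 of 9 above 0 (0.015), oligodendrocyte precursor markers 4 of 8 (-0.010), endothelial markers 3 of 7 (-0.076) and retinal markers 3 of 3 (0.15). Oligodendrocyte markers lay furthest down, with 1 of 11 above 0 and a median of -0.19, and held the 1 gene of these lists with an unadjusted p under 0.05 without pairs, Opalin, a membrane protein of myelinating cells, at -0.58 (SE 0.18). With the replicate number as a block 2 oligodendrocyte markers, 1 microglia, 1 endothelial and 1 cortical and hippocampal marker had such a p, and 0 passed after adjustment. The share of all genes tested with such a p was 1.7% without pairs and 4.85% with the block. Most of these medians turn sign with 1 array left out: the range was -0.021 to 0.20 for pan-neuronal, -0.29 to 0.28 for cerebellar granule cell and -0.55 to 0.19 for endothelial markers, against -0.23 to -0.089 for oligodendrocyte markers and 0.00031 to 0.11 for astrocyte markers. Over all genes 54.8% of values lay above 0. Groups did not overlap for 4 of 11 oligodendrocyte, 2 of 11 cortical and hippocampal and 1 of 9 striatal markers. The share over all genes was 5.7%, and in the other cell type lists the groups of every tested marker overlapped.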

How the data were processed

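Probeset values of 6 arrays were used as the authors deposited them, as intensity on a linear scale; per the submitters' processing notes MAS5 was used, with no version named, and background correction and scaling are unstated. The deposited intensity values (41340 probesets, array medians from 13.4 to 14.6) were transformed as log2(intensity + 1) and quantile normalized, since array medians differed by 0.12 where 0.1 was the limit. Of 25335 annotated probesets 23521 had 1 symbol and 1814 several; the 1-symbol probesets gave 22180 genes, and the 5545 dimmest, below the 25th percentile of gene means, were not tested. Knockout and control were compared over 16635 genes with limma 3.58.1 in R 4.3.3 (two-sided, Benjamini-Hochberg at 0.05), with no pairs; intervals are at 95%, and the number of arrays limits their precision (median half-width 0.33). The test was run on simulated data first. No list was tested: lists are given by counts and medians. Plots used matplotlib 3.10.9 in Python 3.11.15. The table has 0 unused sample columns.

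Named were all 7 receptors, Elavl1, Xist, the 3 genes with the smallest unadjusted p of each signalling list and markers by level. Rgs9 was named because its groups did not overlap, and the genes most like each receptor were named too. Of the cell type lists fewer genes were named than the rule allowed, and Aldh1l1 and Gabra6 are their first genes. The members and lists were chosen with earlier results of these data known. Deviations from group means correlated at 0.31, 0.37 and 0.75 between same-numbered arrays, which passes the limit of 0.1 for pairing, but control 1 correlated with knockout 2 at 0.40, so the data set number 3 apart and no label gives the pairing. Alternatives covered normalization, brightness filter, pseudocount, probeset rule, variance model, array weights, the replicate block and left-out arrays.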

Additional observations from a re-analysis of the deposited data

How the results depend on the processing

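Over 16 alternatives, 0 receptors and 0 genes passed the adjusted threshold, and the arrays limit what could be seen: the unpaired interval of Grm2 and Grm4 includes a fold of 1.82 or 2.07. At an unadjusted p under 0.05 the receptor count was 0 in most alternatives and 1 (Grm4) with both arrays numbered 3 left out, and 0 to 1 when single arrays were left out. Signs near 0 were not stable. With median centring Grm3 turned to 0.033 and Elavl1 to 0.014; with array weights Grm3 was at 0.043, Grm5 at -0.012, Grm7 at -0.074 and Elavl1 at 0.025; without both arrays numbered 3 Grm3 was at 0.057, Grm5 at -0.054, Grm7 at -0.066 and Elavl1 at 0.058. Leaving out 1 array at a time gave ranges of -0.50 to 0.25 for Grm2, -0.080 to 0.061 for Grm3, -0.053 to 0.61 for Grm4, -0.12 to 0.17 for Grm5, -0.17 to 0.14 for Grm7, -0.21 to 0.020 for Grm8, -0.18 to 0.080 for Elavl1, -0.0014 to 0.35 for Homer1 and -0.18 to 0.018 for Siah1a. Grm6 stayed above 0 in the 15 alternatives that tested it. Those that change only the brightness filter, the variance model or the pairing cannot move its log2 fold change and are no separate support. The second Grm6 probeset was below 0, at -0.048. With the upper 50% of genes Grm6 and Grm8 were not tested. Pairing with the replicate block changed no call of a receptor. The block leaves each log2 fold change as it was, so no sign could turn. With it 806 genes (4.85%, 468 higher and 338 lower) had an unadjusted p under 0.05. That count was 465 (259 and 206) with no brightness filter, 88 (49 and 39) in the upper 50% of genes, 755 (445 and 310) with array weights and 854 (505 and 349) without both arrays numbered 3. It was 163 to 574 (93 to 349 higher, 70 to 225 lower) without single arrays, and 76 genes were lower with arrays centred on their median. The filters test other numbers of genes, and the cause of the other shifts was not tested.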

Other observations

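A further probeset lists both Grm8 and Mir592, a microRNA gene that lies within the Grm8 locus in the RefSeq table of GRCm38.p6, and it was therefore not counted as Grm8. Its log2 level was 2.92, 3.13 and 3.17 on control arrays 1, 2 and 3 and 3.41 and 3.00 on knockout arrays 2 and 3, with knockout 1 the highest. The groups overlapped, at a log2 fold change of 0.23 with an SE of 0.16 (limma over all probesets, unadjusted p = 0.188, adjusted p = 1.00). Unlike the Grm8 probeset, it was not highest on the arrays numbered 3. All its values lay below the array medians of 3.85 to 3.97 before normalization. At this brightness a difference could be understated or missed, and the order of the arrays is only a description.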
